A study of Rattus norvegicus with 11 samples.

Results

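Long noncoding RNAs (lncRNAs) are transcripts that are processed like mRNAs but are not annotated to encode a protein. The 65 lncRNAs described here were selected on their level: they are the autosomal genes typed as lncRNA whose FPKM, a read level scaled by transcript length and library size, averaged at least 3 over 11 rat ileum libraries. They were 65 of 4583 lncRNA genes with read counts, 4387 of which had an FPKM, among 24481 genes in all. No lncRNA on a sex chromosome reached this level. The last members inside the threshold were LOC120099122 at a mean of 3.01, LOC102556190 at 3.29 and LOC102550246 at 3.35 FPKM, and the first outside it were LOC108352161 at 2.97, LOC120098265 at 2.92 and Dancr at 2.86 FPKM. All 65 passed the filter on low counts in each comparison below. Because the members had to be well expressed over all libraries, their high level is a description and not a finding. In addition, 9 members reached the threshold only through the libraries of 1 group, since the mean over the libraries of the other groups was below 3 FPKM: LOC120095679, LOC120101573, LOC120095139, LOC120095847, LOC102548056 and LOC120099122 through the JZL184 group, LOC100909490 and LOC102550246 through control, and LOC102556190 through SAP. These had to be higher in that group to be members, so their differences are a description, and the counts of called or non-overlapping members below support nothing on their own.

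The libraries came from ileum of Sprague-Dawley (SD) rats aged 6 to 8 weeks, 3 in the control group, 4 in the group with severe acute pancreatitis (SAP) and 4 in the JZL184 group. In the SAP model, 3% sodium taurocholate was injected retrogradely into the pancreatic duct. The JZL184 group had SAP and was given 1 intraperitoneal dose of JZL184 at 10 mg/kg, 24 h after surgery, and the ileum was taken 24 h later. JZL184 blocks monoacylglycerol lipase, the enzyme that degrades the endocannabinoid 2-arachidonoylglycerol. Rats of the control and SAP groups received vehicle, although the treatment label of the former reads control plasmid and library titles of the latter say oil. The labels also name an intestinal epithelial cell, whereas the RNA was extracted from ileal tissue in which markers of smooth muscle, immune and other cells were measured, so that fewer cells of a type and less RNA per cell cannot be told apart.

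Between 26341299 and 33847135 reads per library lay on genes, and the 65 lncRNAs held 0.145% to 0.279% of them, which was 52.5% to 74.1% of all lncRNA reads. Control libraries 1 and 2 were nearly the same (chi-square per gene 2.81, where other pairs within a group had 77.5 to 563) and were counted as 1 sample, which left 2 control samples. SAP libraries 1 and 2 stood apart from SAP libraries 3 and 4: the Spearman correlation of a gene's deviation with its length was 0.507 and 0.499 in them and between -0.420 and 0.160 in all other libraries. SAP library 2 held 20 reads on Y-linked genes and 7826 reads on LOC100911498, an Xist transcript, whereas the other libraries held at least 1222 and at most 56. The rats of the study were male, which the reads of SAP library 2 do not match, so the identity of this library is in doubt. Without it, edgeR again called none of the members in SAP against control or in JZL184 against SAP. Of all genes it called 0% and 0.00644%. The median log2 fold changes of the members were -0.055 and 0.24. The ileal bile acid transport markers Fabp6 and Slc10a2, both measured, summed to 20588 to 21870 FPKM in control, 3128 to 13742 in SAP and 84.2 to 9035 in JZL184 libraries. Nearly all of this sum was Fabp6: Slc10a2 alone was at 50.9, 51.5 and 82.0 FPKM in control, 136, 49.6, 71.9 and 83.5 in SAP and 9.24, 34.9, 4.24 and 104 in JZL184 libraries, so it overlapped between control and SAP. The lowest sum was that of JZL184 library 3, with 79.9 FPKM of Fabp6 and 4.24 of Slc10a2, where Hoxd10, a posterior patterning gene, had 252 reads against at most 4 in any other library. JZL184 library 1 had 410 FPKM of Fabp6. Neutrophil markers (5 of 5 measured) summed to 0.83 to 2.06 FPKM in control libraries, with Cxcr2 at 0 in all of them, 8.02 to 79.7 in SAP and 12.3 to 245 in JZL184 libraries. Most of the sum in SAP and JZL184 libraries was S100a8 and S100a9. Mpo went the other way, with 0.33 to 0.56 FPKM in control, 0.07 to 0.30 in SAP and 0.08 to 0.25 in JZL184 libraries. The part of these differences in the results below was not tested.

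As background, lncRNAs act in several ways. Some are precursors: small nucleolar RNAs (snoRNAs), which guide the methylation and pseudouridylation of ribosomal RNA, are cut from introns of host genes, and the spliced exons of many hosts are degraded when ribosomes reach their stop codons. Others, such as the imprinted H19, carry a microRNA, and some transcripts typed as noncoding are found to encode short proteins.

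By the RefSeq gene table of the rat assembly GRCr8, which is a later build than the mRatBN7.2 genome of the files and was used for names and neighbours only, 56 of the 65 could be matched. Of these, 10 held 1 or more snoRNA genes, 39 were other lncRNAs, and 7 had another gene type. Among the latter, Ndufb1, a subunit of respiratory complex I, LOC100912557, described as a 6.8 kDa mitochondrial proteolipid, Rhno1, which takes part in the response to DNA damage, LOC100912167 and LOC102552316 are protein-coding in RefSeq, LOC102546433 is a transcribed pseudogene and LOC120093223 an immunoglobulin V segment. Mtln, which remains typed as lncRNA there, encodes mitoregulin, a short protein of the inner mitochondrial membrane, and Smim31 is named as a small integral membrane protein. Of the matched genes, 22 overlapped a protein-coding gene. The kit was stranded, but whether the counting used the strand is not given in the sources used here, so reads of such pairs may not be told apart. The 65 transcripts had a median length of 1.20 kb, against 2.74 kb for 7482 autosomal protein-coding genes of the same mean FPKM. Their median SD within groups was 0.583 on the log2(FPKM + 0.1) scale, against 0.447 for these protein-coding genes.

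**Figure D1:**
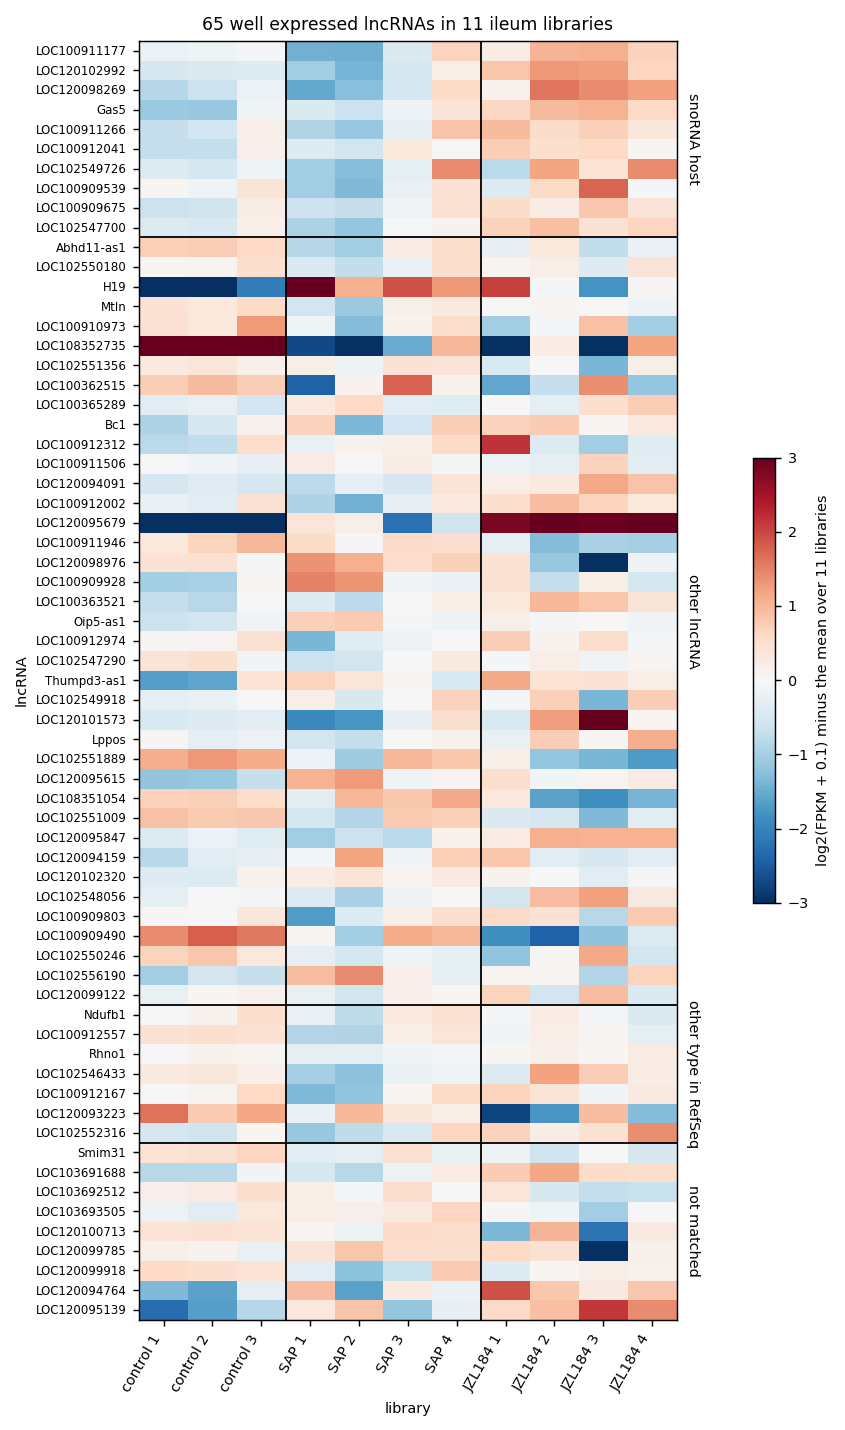
Level of each of the 65 lncRNAs (rows) in the 11 libraries (columns), as log2(FPKM + 0.1) minus the lncRNA's mean over the libraries, with colours ending at -3 and 3. Rows are grouped by RefSeq type. The snoRNA hosts are mostly blue in SAP libraries 1 and 2 and mostly red in the JZL184 libraries, and H19, LOC108352735 and LOC120095679 have the strongest contrast with control.

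The most abundant member was Abhd11-as1, an RNA antisense to the lipid hydrolase gene Abhd11, on chromosome 12. It was at 1017, 1036 and 943 FPKM in control libraries, 341, 298, 727 and 862 in SAP and 524, 767, 373 and 537 in JZL184 libraries. All SAP and all JZL184 libraries lay below all control libraries. The log2 fold change was -0.95 ± 0.52 (SE) for SAP against control (edgeR adjusted p = 0.460) and -0.85 ± 0.37 for JZL184 against control (adjusted p = 0.187), so neither difference passed the test. The next were LOC102550180 with 174 to 410 FPKM and Ndufb1 with 156 to 369 FPKM, both with overlapping groups in every comparison. The remaining members of the 10 most abundant were the snoRNA hosts LOC100911177, LOC120102992, LOC120098269 and Gas5, then Smim31, LOC103691688 and H19. Smim31 was at 115, 120 and 136 FPKM in control, 70.3, 71.9, 119 and 75.7 in SAP and 78.6, 57.8, 87.8 and 62.7 in JZL184 libraries. SAP library 3 was the only SAP or JZL184 library within the control range.

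Members were called where the Benjamini-Hochberg adjusted p over all genes was below 0.05 and the fold change above 2 or below 0.5. In SAP against control, edgeR's quasi-likelihood test called none of the 65, as it called none of the 16029 genes tested (0.0% in either direction). At an unadjusted p below 0.05 there were 8 of 65 members, 12.3%, against 9.09% of all genes. By normalised counts, 5 members (7.69%) lay above and 14 (21.5%) below all control samples, against 11.3% and 11.9% of all genes. DESeq2 called 2 of 64 members higher, H19 and LOC120095679, and none lower, while it gave no adjusted p to LOC108352735, the member furthest below control, against 0.861% of genes higher and 0.366% lower. The median log2 fold change of the 65 was -0.24, beside 0.06 over all genes tested. With gene length offsets, which remove each library's trend on length, it was 0.03. With SAP libraries 1 and 2 alone it was -0.80 and edgeR called 6 members higher and 28 lower, where 20.2% of all genes were called higher and 16.9% lower. With SAP libraries 3 and 4 alone it was 0.16, with 1 higher and 1 lower, where 0.332% and 0.15% of all genes were called.

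In JZL184 against SAP, edgeR again called none of 65 members and 0.0% of 15308 genes in either direction. An unadjusted p below 0.05 was found for 22 members, 33.8%, against 21.3% of all genes. The groups did not overlap for 8 members higher (12.3%) and 2 lower (3.08%) in the JZL184 group, against 6.23% and 5.59% of all genes. DESeq2 called 9 higher (13.8%) and 1 lower (1.54%), against 3.57% and 3.41% of all genes. The 9 were the snoRNA hosts Gas5, LOC102547700, LOC120098269 and LOC120102992, and LOC103691688, LOC120095139, LOC120095679, LOC120095847 and LOC120101573, and the 1 was LOC100911946. Of the 9, LOC120095139, LOC120095679, LOC120095847 and LOC120101573 had reached the FPKM threshold only through the JZL184 group. Their calls rest on values that chose them, so the share called higher is partly set by the selection. The median log2 fold change was 0.46, beside -0.05 over all genes. It was 0.96 against SAP libraries 1 and 2 alone, with 20 members called higher and 1 lower by edgeR, where 7.92% and 10.1% of all genes were called, and 0.16 against SAP libraries 3 and 4 alone, with none of the members and 0.0% of all genes called.

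In JZL184 against control, edgeR called 2 members higher and 2 lower, 3.08% each, against 1.02% and 1.14% of 15916 genes. LOC120095679 and LOC120095139 rose, and LOC100911946 and LOC100909490 fell. All of these but LOC100911946 had reached the FPKM threshold only through the group in which they were higher. An unadjusted p below 0.05 was found for 24 members, 36.9%, against 26.3% of all genes. The groups did not overlap for 19 members higher (29.2%) and 13 lower, against 18.9% and 19.3%. DESeq2 called 10 higher (15.4%) and 4 lower (6.15%), against 5.81% and 4.99%. Those higher were Gas5, LOC120098269 and LOC120102992 of the hosts, H19, LOC103691688, LOC120094764, LOC120095139, LOC120095615, LOC120095679 and LOC120101573, and those lower LOC100909490, LOC100911946, LOC102551009 and LOC102551889. LOC120101573, like LOC120095679 and LOC120095139, had reached the FPKM threshold only through the JZL184 group. The median log2 fold change was 0.31, beside 0.08 over all genes. Without JZL184 library 3, which had few ileal markers, edgeR called 5 higher and 5 lower, where 2.71% and 2.75% of all genes were called. Without JZL184 library 1 it called 7 and 5, against 5.47% and 6.48% of all genes. With either control sample left out only 1 control sample remained, too few to judge a call, so those counts are not given. This comparison shares its libraries with both others.

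**Figure D2:**
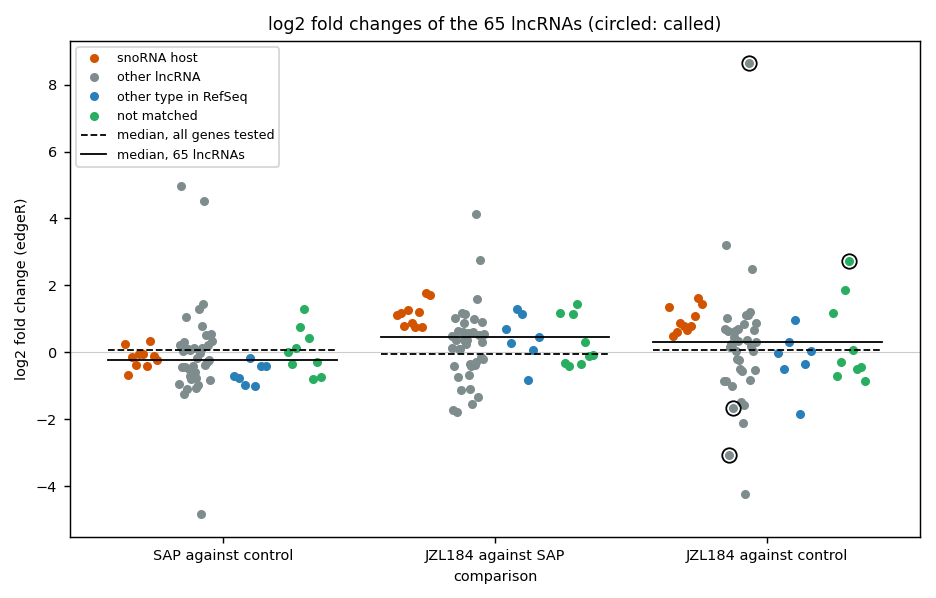
edgeR log2 fold change of each of the 65 lncRNAs in 3 comparisons, coloured by RefSeq type, with called members circled and the medians of the 65 (solid) and of all genes tested (dashed). The 10 snoRNA hosts lie above 0 in both comparisons of the JZL184 group, and the 4 circled members are in JZL184 against control.

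The snoRNA hosts had one sign in both comparisons of the JZL184 group. In JZL184 against SAP all 10 had a log2 fold change above 0, between 0.74 and 1.77 with a median of 1.15, and in JZL184 against control all 10 again, between 0.49 and 1.63 with a median of 0.83. In SAP against control they lay between -0.67 and 0.34, and 2 of 10 were above 0. None was called by edgeR, where the smallest adjusted p was 0.0918 against SAP and 0.0594 against control, both for LOC120102992. An unadjusted p below 0.05 was found for 7 and 6 hosts, and for 21.3% and 26.3% of all genes. DESeq2 called 4 of 10 against SAP and 3 of 10 against control, all higher. Their summed level was 233, 239 and 311 FPKM in control libraries, 156, 143, 260 and 479 in SAP and 438, 670, 686 and 527 in JZL184 libraries. SAP library 4 was thus above JZL184 library 1, and SAP libraries 1 and 2 were the lowest of all. Against SAP libraries 1 and 2 alone the hosts' median log2 fold change in the JZL184 group was 2.10, with 8 called higher by edgeR, where 7.92% of all genes were, and against SAP libraries 3 and 4 alone it was 0.60, with none called and all 10 above 0. With gene length offsets the medians were 1.09 against SAP and 1.18 against control. In SAP against control the hosts' median was -0.13, and 0.08 with gene length offsets, where 6 of 10 were above 0. With SAP libraries 1 and 2 alone it was -1.13 with 0 of 10 above 0. There edgeR called 7 hosts lower, as it did 16.9% of all genes. With SAP libraries 3 and 4 alone it was 0.32, with 9 of 10 above 0 and none called. Over the 10 samples, the 45 pairs of hosts had a median Pearson r of 0.833 on the log2(FPKM + 0.1) scale, against 0.105 over the 2080 pairs of members, as a description of libraries that also differ in length trend.

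Genes for ribosomal proteins were set beside the hosts, since hosts and ribosomal protein mRNAs often begin with a run of pyrimidines that ties their translation to growth signals. All 72 ribosomal protein genes had a log2 fold change above 0 in JZL184 against SAP, with a median of 0.85, as did 71 of 72 in JZL184 against control, with a median of 0.48. In SAP against control 3 of 72 were above 0 and the median was -0.33. edgeR called none of the 72 in any comparison, and DESeq2 called 1 higher in each comparison of the JZL184 group. In SAP against control, JZL184 against SAP and JZL184 against control 0, 18 and 4 had an unadjusted edgeR p below 0.05. Of all genes tested, 9.09%, 21.3% and 26.3% had one. The ribosomal medians also depended on the SAP libraries. In SAP against control the median was -1.341 with SAP libraries 1 and 2 alone and 0.2229 with SAP libraries 3 and 4 alone. With gene length offsets it was -0.04155. In JZL184 against SAP it was 1.796 against SAP libraries 1 and 2 alone and 0.2899 against SAP libraries 3 and 4 alone. With gene length offsets it was 0.7995. A run of at least 6 bases of C or T that begins with C was looked for on the transcribed strand from 20 bases before to 20 bases after each RefSeq start. It was present for 5 of the 9 hosts with a promoter sequence, 13 of 40 other members (32.5%), 51 of 61 ribosomal protein genes (83.6%) and 27.9% of all 27457 genes. The 40 bases around the starts of the 5 hosts are shown to let their runs be compared, from RefSeq in GRCr8 coordinates, with every run in capitals:
LOC120102992 at chr5:149784264-149784303, plus strand: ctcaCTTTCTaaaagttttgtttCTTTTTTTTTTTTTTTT
Gas5 at chr13:75836943-75836982, plus strand: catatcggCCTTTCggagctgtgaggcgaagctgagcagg
LOC100912041 at chr1:215048315-215048354, plus strand: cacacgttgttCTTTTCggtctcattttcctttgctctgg
LOC102549726 at chr20:3881188-3881227, plus strand: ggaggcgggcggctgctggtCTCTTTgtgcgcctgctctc
LOC100909675 at chr4:12184184-12184223, minus strand: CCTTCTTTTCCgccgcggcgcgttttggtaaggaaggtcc
In LOC102549726 the run begins at base 1 of the annotated transcript, and LOC120102992 has 1 run that starts 16 bases before the transcript and another that starts at its base 4 and reaches the end of the window. In the remaining 3 the run starts before the transcript, 20 bases before it in LOC100909675, 12 in Gas5 and 9 in LOC100912041. A run is a match of letters and was not shown to act in these rats.

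LOC120102992 on chromosome 5, which holds Snora61, Snord99 and 2 more snoRNA genes, had 31.8, 32.8 and 33.6 FPKM in control, 21.5, 16.9, 32.0 and 51.1 in SAP and 79.6, 111, 106 and 69.98 in JZL184 libraries. All JZL184 libraries were above all others. Its log2 fold change was 1.72 ± 0.42 against SAP and 1.45 ± 0.33 against control (edgeR adjusted p = 0.0918 and 0.0594). By a two-sided exact permutation test of FPKM, p was 0.0286 against SAP, the smallest that 4 against 4 samples allow, and 0.0667 against control, the smallest that 4 against 2 allow.

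Gas5 on chromosome 13, a growth arrest transcript that holds 9 snoRNA genes and is a known substrate of nonsense-mediated decay, had 17.3, 17.2 and 34.8 FPKM in control, 28.0, 24.1, 33.8 and 49.3 in SAP and 58.5, 72.9, 78.1 and 57.1 in JZL184 libraries. The lowest JZL184 library was above the highest SAP library. The mean was 66.6 ± 10.5 (SD, n = 4) in JZL184, 33.8 ± 11.1 (n = 4) in SAP and 26.01 ± 12.4 (n = 2) in control samples. Its log2 fold change was 1.11 ± 0.33 against SAP (edgeR adjusted p = 0.127, DESeq2 adjusted p = 0.0334) and 1.35 ± 0.35 against control (0.0742 and 0.0181).

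LOC120098269 on chromosome 18, beside Epb41l4a, had 22.3, 25.9 and 35.8 FPKM in control, 13.8, 16.9, 28.0 and 59.4 in SAP and 43.9, 123, 109 and 94.1 in JZL184 libraries. SAP library 4 overlapped the JZL184 range, while all JZL184 libraries were above control. Among hosts its fold change was the largest, on the log2 scale 1.77 ± 0.56 against SAP and 1.63 ± 0.48 against control (edgeR adjusted p = 0.141 and 0.0922). The mRNA of Epb41l4a had log2 fold changes of the same sign, 1.72 and 2.63 (edgeR adjusted p = 0.166 and 0.114). LOC100911177 on chromosome 3, which holds Snord12 and Snord12c and lies beside Znfx1, was the most abundant host. It had 96.3, 100.0 and 105 FPKM in control, 40.2, 39.4, 81.0 and 174 in SAP and 128, 219, 229 and 176 in JZL184 libraries. The mRNA of Znfx1, an antiviral helicase, had log2 fold changes of the opposite sign in the JZL184 group, -2.10 against SAP and -1.21 against control (edgeR adjusted p = 0.0851 and 0.104), where those of LOC100911177 were 1.27 and 0.86 (adjusted p = 0.210 and 0.155).

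LOC102547700 on chromosome 14, beside Myo1g, had 6.94, 6.72 and 10.3 FPKM in control, 4.76, 4.07, 9.37 and 9.87 in SAP and 14.97, 17.4, 12.5 and 14.5 in JZL184 libraries, so that all JZL184 libraries were above all others. LOC102549726, beside the heat shock gene Hspa1b, and LOC100909539 varied most: JZL184 library 1 had 7.95 and 9.81 FPKM of them, below every control library, whereas JZL184 library 3 had 44.4 FPKM of LOC100909539 and JZL184 library 4 had 37.6 of LOC102549726. LOC100911266, LOC100912041 and LOC100909675 had 11.6 to 46.4, 10.2 to 28.2 and 7.42 to 21.3 FPKM over all libraries, and SAP and JZL184 libraries overlapped in each.

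**Figure D3:**
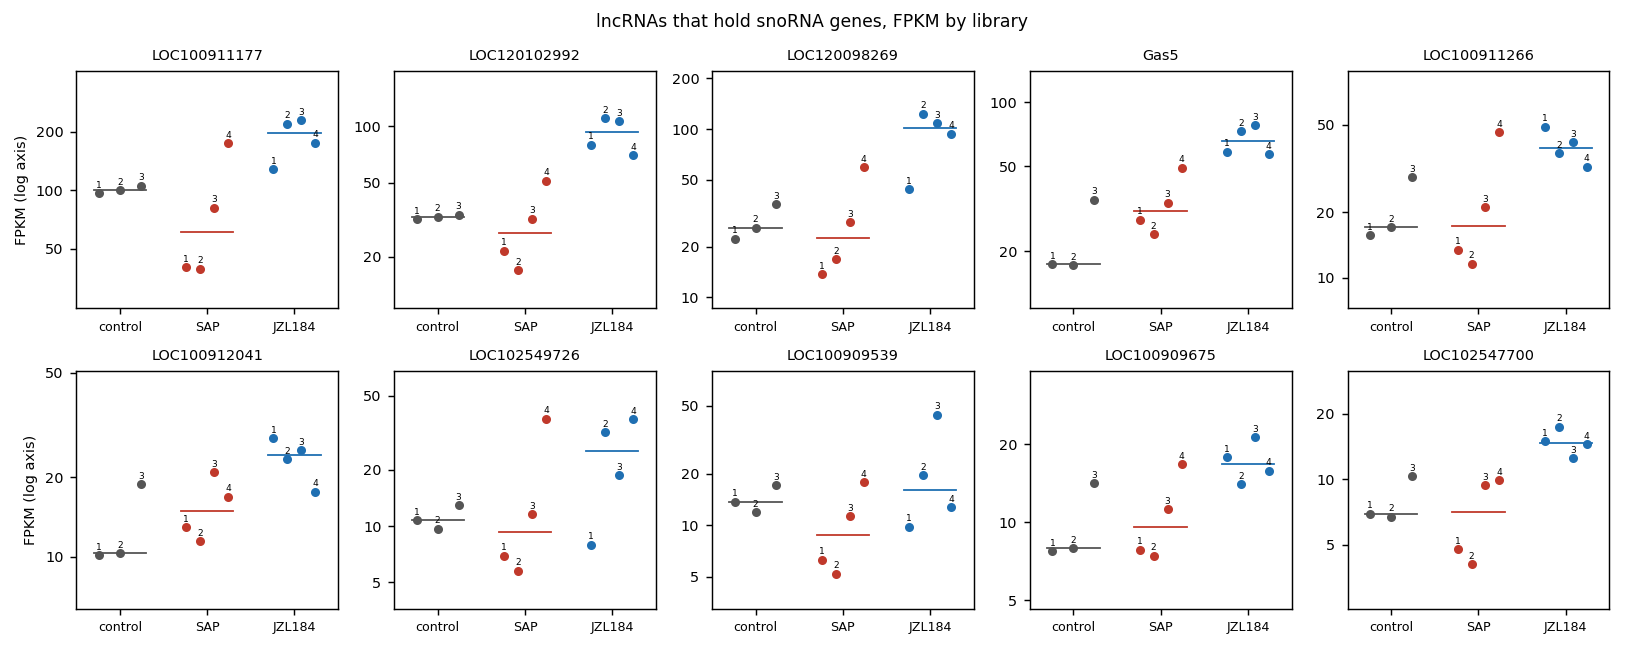
FPKM (log axis) of the 10 snoRNA hosts in each library, numbered by replicate, with a line at the median of each group's libraries. SAP libraries 1 and 2 are below SAP libraries 3 and 4 in all panels, and all JZL184 points are above all SAP points for LOC120102992, Gas5 and LOC102547700.

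Partner proteins of lncRNAs were counted by list. Factors of nonsense-mediated decay (10 of 10 tested) had median log2 fold changes of 0.23, 0.00 and 0.32 in SAP against control, JZL184 against SAP and JZL184 against control. Those of paraspeckle and speckle proteins (14 of 14 tested) were 0.30, -0.18 and 0.16, and those of nuclear RNA decay factors (9 of 10 tested) 0.47, -0.35 and 0.26. No gene of these lists was called by edgeR or DESeq2 in any comparison. An unadjusted edgeR p below 0.05 was found for 0 of 14 paraspeckle and speckle proteins, 1 of 9 nuclear decay factors and 0 of 10 factors of nonsense-mediated decay in SAP against control, for 1, 2 and 1 in JZL184 against SAP, and for 4, 1 and 0 in JZL184 against control. Of all genes tested, 9.09%, 21.3% and 26.3% had such a p in these comparisons.

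H19, the imprinted, maternally expressed RNA of fetal tissues on chromosome 1, was nearly silent in control ileum. It had 1.32, 1.67 and 3.42 FPKM in control, 228, 30.9, 56.7 and 36.3 in SAP and 61.5, 14.0, 4.18 and 15.1 in JZL184 libraries. Every SAP and JZL184 library was above every control library, and the lowest JZL184 value was just above the highest control value. In SAP against control the log2 fold change of H19 was 4.98 ± 1.06, where edgeR's adjusted p was 0.403 and DESeq2's 1.5e-07, and 3.22 ± 1.01 in JZL184 against control, with 0.101 and 0.000572. In JZL184 against SAP it was -1.72 ± 0.82 with overlapping groups (edgeR adjusted p = 0.256, DESeq2 0.134). The exact permutation test of FPKM gave p = 0.267 for SAP against control, and on the log2(FPKM + 1) scale p = 0.0667, the smallest that 4 against 2 samples allow. H19 also holds the gene of miR-675, whose mature sequences are shown because they are a product through which H19 is known to act on other mRNAs. From RefSeq, in GRCr8 coordinates on the minus strand and with the seed, bases 2 to 8, in capitals, they are:
rno-miR-675-5p at chr1:207161800-207161821: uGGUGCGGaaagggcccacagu
rno-miR-675-3p at chr1:207161766-207161786: uGUAUGCCcuaaccgcucagu
The mature miRNAs were not measured in these mRNA libraries, so only the level of the host transcript is known.

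LOC120095679 on chromosome 11 had the largest fold change of the members, and the annotation gives no function for it. Its FPKM was 0.07, 0.03 and 0.08 in control, from 2 to 5 reads a library, 2.78, 2.39, 0.37 and 1.38 in SAP and 15.5, 28.1, 17.0 and 43.4 in JZL184 libraries. The 3 groups were fully separated, with control lowest and JZL184 highest, but the mean outside the JZL184 group was 1.01 FPKM, so it was a member only through that group and the tests below rest on values that chose it. It rose in JZL184 against control by a log2 fold change of 8.64 ± 0.78 (edgeR adjusted p = 0.0085). The call held without each JZL184 library in turn. With 1 control sample left, the log2 fold change was 8.36 without control libraries 1 and 2 and 8.87 without control library 3. In SAP against control the log2 fold change was 4.53 ± 0.92 (edgeR adjusted p = 0.395, DESeq2 2.3e-05), and in JZL184 against SAP 4.14 ± 0.62 (0.0604 and 1.6e-09). In the exact permutation test of JZL184 against SAP, p was 0.0286. Its nearest protein-coding gene, Xxylt1, a xylosyltransferase, had a log2 fold change of 0.997 in JZL184 against control (edgeR adjusted p = 0.137).

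LOC120095139 on chromosome 10, one of the 9 members without a match in RefSeq, had 0.66, 1.08 and 1.94 FPKM in control, 4.54, 6.57, 1.55 and 3.03 in SAP and 5.39, 6.84, 15.98 and 9.76 in JZL184 libraries. All JZL184 libraries were above control, and JZL184 library 3 was the highest. The mean outside the JZL184 group was 2.77 FPKM, so that it too was a member only through that group. It rose in JZL184 against control, by a log2 fold change of 2.73 ± 0.54 (edgeR adjusted p = 0.0454), and by 2.42 without JZL184 library 3 (adjusted p = 0.0204). The call was lost without JZL184 library 2 (adjusted p = 0.094) or 4 (0.0939). With 1 control sample left, the log2 fold change was 2.29 without control libraries 1 and 2 and 3.31 without control library 3.

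LOC100911946 on chromosome 10 lies beside Usp43, a ubiquitin-specific protease. It had 11.1, 14.2 and 17.4 FPKM in control, 12.9, 8.51, 13.2 and 12.6 in SAP and 7.35, 3.53, 4.44 and 4.35 in JZL184 libraries. Every JZL184 library was below every library of the other groups, which overlapped each other in FPKM. It fell in JZL184 against control by 1.66 ± 0.32 on the log2 scale (edgeR adjusted p = 0.0445), while Usp43 had a log2 fold change of -0.37 (adjusted p = 0.495). Against SAP the log2 fold change was -1.13 ± 0.30 (edgeR adjusted p = 0.108, DESeq2 0.0150). The call against control was lost with gene length offsets (adjusted p = 0.0664) and without JZL184 library 2 (0.0993) or 4 (0.106). With 1 control sample left, the log2 fold change was -1.83 without control libraries 1 and 2 and -1.49 without control library 3.

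LOC100909490 on chromosome 5 overlaps Mfsd2a, a transporter of lysophosphatidylcholine with omega-3 fatty acids. It had 6.31, 8.30 and 7.11 FPKM in control, 2.37, 1.10, 5.11 and 4.70 in SAP and 0.57, 0.35, 0.94 and 1.71 in JZL184 libraries, the latter from 8 to 38 reads. SAP libraries lay below control and, except for SAP library 2, above all JZL184 libraries. The mean outside control was 2.11 FPKM, so it was a member only through the control libraries. It fell in JZL184 against control by 3.06 ± 0.56 on the log2 scale (edgeR adjusted p = 0.0395). Mfsd2a itself had a log2 fold change of 2.35 in the same comparison (adjusted p = 0.125), the opposite sign. The call of LOC100909490 was lost with gene length offsets (adjusted p = 0.0508) and without JZL184 library 2 (0.0893). With 1 control sample left, its log2 fold change was -2.98 without control libraries 1 and 2 and -3.15 without control library 3.

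**Figure D4:**
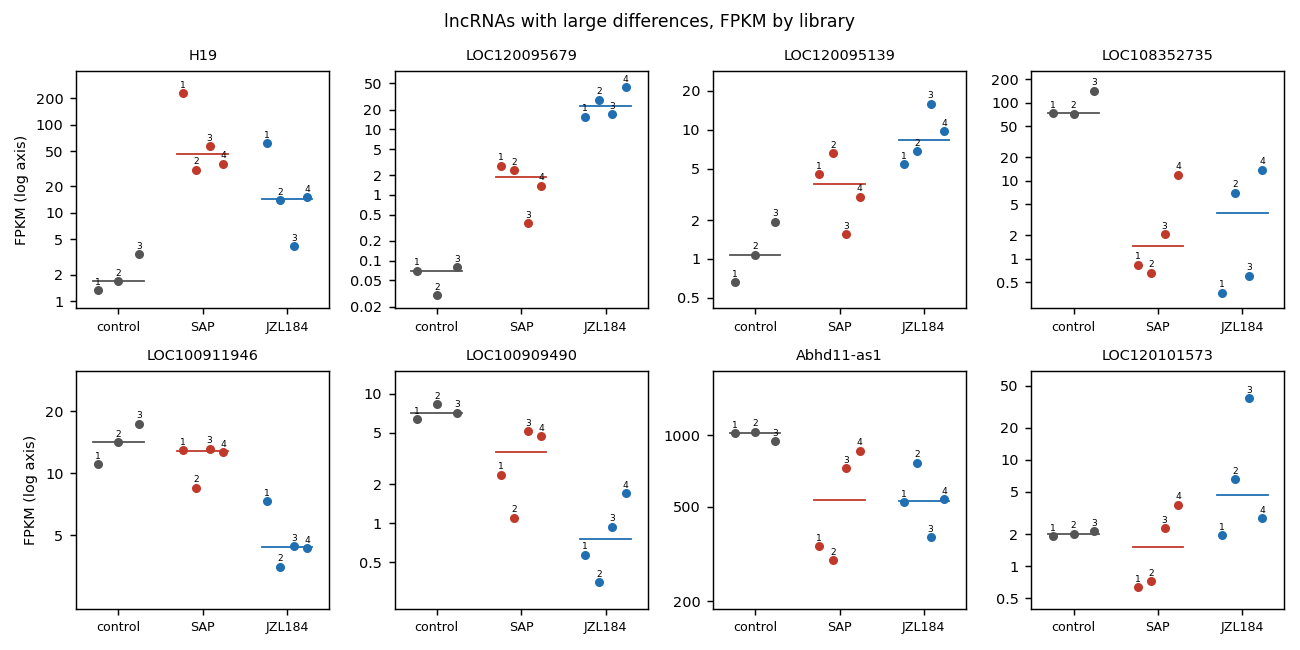
FPKM (log axis) of 8 lncRNAs in each library, numbered by replicate, with a line at the median of each group's libraries. LOC120095679 separates all 3 groups, H19 and LOC108352735 separate control from both others, and LOC120101573 is high in JZL184 library 3.

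LOC108352735 on chromosome 14, whose nearest coding gene is the protease inhibitor gene Spink2, was the member with the largest deficit. It was at 72.7, 71.6 and 142 FPKM in control, 0.84, 0.66, 2.07 and 11.9 in SAP and 0.37, 7.03, 0.61 and 13.8 in JZL184 libraries. No SAP or JZL184 library came near the control range, and these libraries spread widely among themselves. SAP against control gave a log2 fold change of -4.83 ± 1.17 (edgeR adjusted p = 0.459) and JZL184 against control one of -4.24 ± 1.21 (edgeR adjusted p = 0.0880, DESeq2 0.0508), so it was not called. DESeq2 gave a log2 fold change of -4.84 in SAP against control and no adjusted p. It was called in that comparison by DESeq2 with control libraries 1 and 2 as separate samples (adjusted p = 1.3e-05), and by edgeR with SAP libraries 1 and 2 alone (0.000969), with SAP libraries 3 and 4 alone (0.0424), without SAP library 4 (0.0413) and with a replicate block (7.5e-13), although the labels' numbers did not pair the rats. Its SD within groups, 1.99 on the log2(FPKM + 0.1) scale, was the largest of all members, followed by LOC120101573 with 1.45 and LOC100362515 with 1.42.

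Other members lay below control without being called. LOC102551889, beside Prdm9, which marks recombination sites in germ cells, had 8.51, 9.82 and 8.64 FPKM in control, 3.45, 1.82, 7.76 and 6.88 in SAP and 4.40, 1.71, 1.45 and 1.14 in JZL184 libraries. All SAP and JZL184 libraries were below control, with a log2 fold change of -2.10 ± 0.48 in JZL184 against control (edgeR adjusted p = 0.0629, DESeq2 0.00153). Mtln had 48.4, 44.5 and 54.1 FPKM in control, 23.8, 16.4, 40.2 and 43.5 in SAP and 35.3, 37.5, 36.1 and 32.3 in JZL184 libraries, again with both groups below control. The mitochondrial proteolipid transcript LOC100912557 had 49.3 to 52.0 FPKM in control, 19.4 to 47.6 in SAP and 30.0 to 41.8 in JZL184 libraries. LOC102550246 had 3.79 to 5.40 FPKM in control and 2.06 to 2.73 in SAP libraries, without overlap (log2 fold change -1.06 ± 0.33, edgeR adjusted p = 0.459). It was a member only through the control libraries, so this difference rests on values that chose it. In JZL184 libraries it had 1.26, 3.07, 6.75 and 2.04 FPKM, and library 3 was above every control library.

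Several members lay above control. LOC120095615, which overlaps the interferon receptor gene Ifnar2, had 1.85, 1.94 and 2.64 FPKM in control, 9.05, 10.6, 3.99 and 4.56 in SAP and 6.30, 4.12, 4.61 and 5.17 in JZL184 libraries, and all of the latter 8 were above control. Against control, its log2 fold change was 1.45 ± 0.45 for SAP (edgeR adjusted p = 0.459) and 1.12 ± 0.30 for JZL184 (0.0756), whereas that of Ifnar2 was 0.32 and 0.60 (0.592 and 0.245). LOC102556190, which overlaps Bcat2, an enzyme of branched-chain amino acid breakdown, had 1.35 to 1.93 FPKM in control and 5.53, 7.83, 3.26 and 2.35 in SAP libraries. It was a member only through the SAP libraries, so this difference rests on values that chose it. Its JZL184 libraries, at 1.52 to 4.63 FPKM, overlapped control. LOC120094159, which overlaps the DNA damage kinase gene Atm, had 2.11 to 3.22 FPKM in control and 3.67, 8.88, 3.62 and 6.4 in SAP libraries. Here too JZL184 libraries, at 2.71 to 6.83 FPKM, overlapped control. In these 3 members SAP library 2, the one with reads of LOC100911498, had the highest value of its group.

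Of members higher in the JZL184 group, LOC103691688 on chromosome 2, without a match in RefSeq, had 24.5, 24.8 and 41.9 FPKM in control, 30.6, 24.8, 38.9 and 52.3 in SAP and 74.3, 99.1, 64.7 and 63.6 in JZL184 libraries. All JZL184 libraries were above all others, and the log2 fold change was 1.19 ± 0.35 against SAP and 1.18 ± 0.36 against control (edgeR adjusted p = 0.124 and 0.100, DESeq2 0.0323 and 0.0479). LOC120095847, which overlaps Erp29, a chaperone of the endoplasmic reticulum, had 1.76, 2.35, 2.07 and 3.98 FPKM in SAP and 4.33, 7.85, 7.77 and 7.73 in JZL184 libraries. Its log2 fold change against SAP was 1.59 ± 0.44 (edgeR adjusted p = 0.112), against -0.23 for Erp29 (0.781). LOC120095847 was a member only through the JZL184 libraries, so its difference rests on values that chose it. LOC100912002 had 5.31, 3.66, 8.60 and 12.4 FPKM in SAP and 14.3, 19.6, 16.1 and 12.7 in JZL184 libraries, with the closest values 12.4 and 12.7. Control libraries had 8.91, 8.08 and 14.0 FPKM of it and overlapped the JZL184 range. LOC120094764 had 1.93, 1.59 and 4.07 FPKM in control and 19.2, 8.89, 6.01 and 8.90 in JZL184 libraries, and SAP libraries spread from 1.57 to 9.65. LOC120098976, which overlaps the glutathione-cleaving enzyme gene Ggt1, was lower in JZL184 than in SAP libraries. It had 13.4, 11.1, 7.63 and 8.70 FPKM in SAP and 7.08, 2.33, 0.32 and 4.68 in JZL184 libraries. Its control values, 7.16, 7.28 and 5.13 FPKM, overlapped the JZL184 range.

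Some members were set apart by 1 library. JZL184 library 3 had 38.1 FPKM of LOC120101573, which lies in the Hoxd cluster and overlaps Hoxd4, against 0.64 to 6.57 in the other libraries, and in the same library Hoxd9 had 240 reads against at most 47. It also had 0.50 FPKM of LOC120099785, against 5.41 to 11.4 elsewhere, and 1.39 of LOC120100713, of which JZL184 library 1 had 2.61 and the others 6.14 to 14.1. These are the 2 libraries with the least Fabp6, and the part of that difference was not tested. JZL184 library 1 had 44.2 FPKM of LOC100912312, against 4.69 to 14.8 elsewhere. The immunoglobulin segment LOC120093223 had 17.4, 9.48 and 12.6 FPKM in control, 4.86, 11.1, 7.04 and 6.27 in SAP and 0.74, 1.59, 10.7 and 2.20 in JZL184 libraries, and LOC100362515, named as an immunoglobulin kappa gene in RefSeq, had 23.5 to 26.9, 2.53 to 47.8 and 4.68 to 37.1. Within the JZL184 group both were highest in library 3. B and plasma cell markers (5 of 5 measured) summed to 202 to 210 FPKM in control, 64.1 to 185 in SAP and 80.4 to 122 in JZL184 libraries. Single markers differed from the sum. In JZL184 library 1 Ms4a1 was at 18.4 FPKM, against 7.66 to 9.04 in control, and Jchain at 18.2, against 90.8 to 118. In JZL184 library 3 Jchain, at 16.7 FPKM, was the lowest of all libraries, while Mzb1, at 16.9, was the highest of its group.

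The most even members were Rhno1, with 13.9 to 20.4 FPKM over all libraries and a within-group SD of 0.106 on the log2(FPKM + 0.1) scale, LOC120102320, which overlaps the mitochondrial nucleoside kinase gene Dguok, with 3.11 to 5.43 FPKM and 0.205, and Smim31 with 0.303. Oip5-as1, also known as Cyrano, which triggers the decay of miR-7, had 3.91, 4.17 and 5.77 FPKM in control, 10.2, 10.7, 5.98 and 5.58 in SAP and 7.02, 5.96, 6.23 and 5.75 in JZL184 libraries. Its 2 highest values were those of SAP libraries 1 and 2, whose long transcripts were high, and Oip5-as1 was the longest member at 8.38 kb. Bc1, a short RNA polymerase III transcript known as a repressor of translation in neurons, had 4.52 to 19.7 FPKM and 705 reads over all libraries. Of 18 lncRNAs and other noncoding genes listed by name that had a row in the data, Gas5, H19 and Oip5-as1 were members. The remaining 15, such as Dancr at 2.86, Tug1 at 1.43 and Pvt1 at 0.061 FPKM, lay below the threshold. The list was matched by symbol only, so a listed gene that has a LOC symbol here would be missed, also among the members.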

How the data were processed

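RNA of 11 rat ilea was sequenced as stranded mRNA libraries, and 3 groups were formed from the treatment labels. The authors trimmed reads, aligned them to mRatBN7.2 with HISAT2 and deposited counts of uniquely aligned reads per gene, without normalization, and FPKM with 2 decimals. Which tool and annotation made the counts is not stated in the sources used here. The 65 members and the lists of genes were chosen with earlier results of these data known. Counts of control libraries 1 and 2 were summed and their FPKM averaged. Pairs of groups were compared by edgeR 4.0.16 (R 4.3.3; quasi-likelihood test, TMM, edgeR's filter with a minimum count of 10), and with DESeq2 1.42.0 and limma 3.58.1 as alternatives. Overlap was judged on normalised counts over 10 samples where shares are given, and otherwise on FPKM of the libraries named. The test was also run on simulated counts, drawn without the libraries' length trend, so this run does not cover that trend. Single members were compared by exact permutation of FPKM, and for H19 also of log2(FPKM + 1).

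Members are named if they are among the 10 most abundant, called, among the 5 largest non-overlapping fold changes per direction, in a list of known noncoding genes, among the 3 with the largest or smallest spread, or next to the threshold. The other snoRNA hosts and Mtln, LOC100912557, LOC120099785, LOC120100713, LOC100912312 and Bc1 were named after their values were seen, as were all members of another RefSeq type and all that DESeq2 called. Correlations of same-numbered libraries after subtracting group means were -0.435 to 0.121, so the numbers did not pair the rats. Depth was 26341299 to 33847135 reads. Counting error adds to the spread where reads are few, as for LOC120095679 in control and LOC100909490 in JZL184 libraries. RefSeq sequences matched 56 members by symbol or gene ID. Splice junctions were not analysed here.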

Additional observations from a re-analysis of the deposited data

Results flagged for a closer look

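In 9 of 74 groups of 4 libraries, taken over the named members and the snoRNA hosts, 1 library lay farther from the rest than Dixon's criterion at the 95% level allows, which chance gives in about 1 of 20 groups. 3 of these values were in JZL184 library 3, the library with the least Fabp6 and the most Hoxd10: 38.07 FPKM of LOC120101573, 37.07 of LOC100362515 and 10.7 of LOC120093223. In JZL184 library 1, LOC120094159 was high at 6.83 FPKM and LOC120095847 low at 4.33. In the SAP group, library 1 had 227.8 FPKM of H19, library 2 had 8.51 of LOC100911946, library 3 had 118.76 of Smim31 and library 4 had 11.94 of LOC108352735. What set these libraries apart was not tested.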

How the results depend on the processing

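The number of members called depended on tool and libraries, and the cause was not tested. Shares in brackets are of all genes with a log2 fold change, with or without an adjusted p. In SAP against control edgeR called 0 members (0% of all genes) and DESeq2 2 (0.893%). DESeq2 with control libraries 1 and 2 as separate samples (chosen after seeing the data) called 7 (6.15%). SAP libraries 1 and 2 alone gave 34 (37.2%) and SAP libraries 3 and 4 alone 2 (0.482%). Leaving out each SAP library in turn gave 0 to 1, the 1 without SAP library 4 (0.0189%). In JZL184 against SAP edgeR called 0 (0%), DESeq2 10 (5.32%) and limma-voom 7 (4.57%). No filter on low counts gave 1 (0.112%), all 3 groups in 1 fit 1 (1.25%) and gene length offsets 2 (0.229%). SAP libraries 1 and 2 alone gave 21 (18.1%). Leaving out each library gave 0 to 3, the 3 without JZL184 library 1 (4.21%). In JZL184 against control edgeR called 4 (2.16%), DESeq2 14 (8.04%) and limma-voom 19 (18.3%). With separate controls DESeq2 called 21 (14.7%) and edgeR 19 (18.1%). No filter on low counts gave 9 (3.93%) and at least 10 reads in every library 2 (2.42%). Leaving out JZL184 library 2 gave 1 (0.158%), library 4 gave 2 (0.493%), library 3 gave 10 (5.46%) and library 1 gave 12 (12%). Leaving out either control sample kept 1 control sample, and counts of those fits are not given. Settings not named in this section stayed within 1.5 times the count of calls.

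The numbers in the labels did not pair the rats. With the number as a replicate block, edgeR called 3 members in SAP against control, 0 in JZL184 against SAP and 2 in JZL184 against control. Of all genes it called 0.917%, 0% and 0.415%. The counts of members were the same with the replicate block and gene length offsets together, where 1.39%, 0% and 0.214% of all genes were called.

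The median log2 fold change of the members was -0.24 in SAP against control and 0.030 with gene length offsets. It was -0.80 with SAP libraries 1 and 2 alone and 0.16 with SAP libraries 3 and 4 alone. Its sign thus differed between these pairs of libraries, which also differ in length trend, and the cause was not tested. When each library was left out in turn the median was -0.51 (without SAP library 4) to -0.055 (without SAP library 2). In JZL184 against SAP it was 0.46, 0.96 with SAP libraries 1 and 2 alone, 0.16 with SAP libraries 3 and 4 alone and 0.24 (without SAP library 2) to 0.64 (without SAP library 4) when each library was left out. Other settings moved it by less than the SD of library medians, 0.210. Over all members whose groups did not overlap, or whose unadjusted p was below 0.05, the sign of the log2 fold change was kept in all but 2 of 1337 refits, of which 149 gained and 21 lost a call. The exceptions were Mtln at 0.0942 and LOC100912557 at 0.0445 in JZL184 against control, with the replicate block and gene length offsets together. The members in these refits were chosen by their difference in the same counts, so a kept sign supports nothing on its own. Outside them the sign could change. In JZL184 against control the host LOC100909539 was at 0.49, and at -0.048 without JZL184 library 3. With 2 control samples, 1 of them from a pair of near-identical libraries, comparisons with control rest on few rats, and single members with few reads, such as LOC120095679 in control, are limited by depth.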
